A study of Rattus norvegicus with 56 samples.

Results

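Elovl6, Elovl5, Scd, Scd2, Fads1 and Fads2 encode the enzymes that lengthen fatty acids and put double bonds into them. They were taken as every probe set, a set of short oligonucleotides read as 1 value, whose gene symbol in the annotation of the array was 1 of these names after an update by Entrez gene ID. This gave 9 probe sets for the 6 genes, of 15866 probe sets and 10411 genes in all, and none of the 9 is shared with another gene. Elovl5 has 2 probe sets, Scd2 has 3 and the other genes have 1 each.

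The study measured expression on single-colour Affymetrix arrays in the mammary gland of inbred female rats of the strain Wistar Furth. The treated group comprised 12 rats given what the labels call RXR treatment, of which 6 were in diestrus, 3 in estrus, 1 in proestrus and 2 in proestrus or estrus. The control group comprised 12 rats, of which 9 were in diestrus, 2 in estrus and 1 in proestrus or estrus. RXR commonly stands for retinoid X receptor, a nuclear receptor. The sources used here give no compound, dose or duration and no age of the rats. From these rats, labelled and fragmented targets were mixed into 6 treated and 6 control pools of 2 rats, 4 treated and 4 control pools of 3, and 1 treated and 1 control pool of 12. Each pool of 12 was hybridised 4 times, and rat 3 of each group had 2 further arrays. Pools and individual arrays therefore share their rats and are not independent of each other.

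Long-chain fatty acids made in the cell start as palmitate. In fat-storing and milk-producing tissue, Elovl6 lengthens palmitate to stearate, and stearoyl-CoA desaturases (Scd and Scd2) turn saturated chains into oleate and palmitoleate. Elovl5 lengthens polyunsaturated chains that Fads2, the delta-6 desaturase, and Fads1, the delta-5 desaturase, make from dietary linoleate and alpha-linolenate. Transcription of these genes is known to answer to SREBP-1, to the liver X receptors, which pair with RXR, and to PPAR receptors, which also do. The fat pad of the mammary gland holds adipocytes around an epithelial tree, and both kinds of cell make fat.

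The 56 arrays had medians of 7.40 to 7.48 log2, with values between 4.12 and 14.08, and their number limits the precision. Luminal epithelial markers such as Epcam and Krt8 and adipocyte markers such as Fabp4 and Lipe were measured in every gland, with means of 8 luminal genes between 9.79 and 10.6 log2 and of 7 adipocyte genes between 9.90 and 11.1 log2. The gland was measured whole, so fewer cells of a type and less RNA per cell cannot be told apart. The last repeat array of the control pool of 12 stood apart. Over all probe sets its deviations from the mean of the rats correlated with the first array of that pool at r = 0.0801, below its highest r with a single control rat, 0.511. The difference between the pools of 12 is given with and without it.

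In the leading comparison, that of treated with control rats, both elongases and Scd rose, while Scd2, Fads1 and Fads2 did not pass the test. Called here means an adjusted p under 0.05 in limma's moderated test over all 15866 probe sets with Benjamini-Hochberg adjustment. Of the 9 probe sets, 4 were called higher and 0 lower (9 of 9 tested, 4 with an unadjusted p under 0.05). Over all probe sets, 8.46% were called higher and 9.59% lower. No probe set of the 6 genes separated the groups without overlap, which 0.384% of all probe sets did upward.

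Elovl6 lies on chromosome 2 of the rat build GRCr8, from base 220738095 to 220845528. Its probe set 1388108_at ran from 10.39 to 12.58 log2 in treated rats with a median of 11.82, and from 8.18 to 10.58 log2 in control rats with a median of 9.64. Of the 12 treated rats, 10 lay above every control rat. The other treated rats were rat 3 at 10.39 log2 and rat 9 at 10.57 log2, both just under control rat 5 at 10.58 log2. The mean was 11.69 ± 0.71 log2 in treated rats and 9.50 ± 0.83 log2 in control rats (SD, n = 12 each). Elovl6 rose by 2.18 ± 0.29 log2 (SE), a 4.54-fold difference with a 95% interval of 2.98 to 6.90, and limma's adjusted p was 1.01e-05. Only 3 of the 15866 probe sets rose further. The spread between rats was wide in both groups beside the SD of repeat arrays, 0.129 log2.

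**Figure D1:**
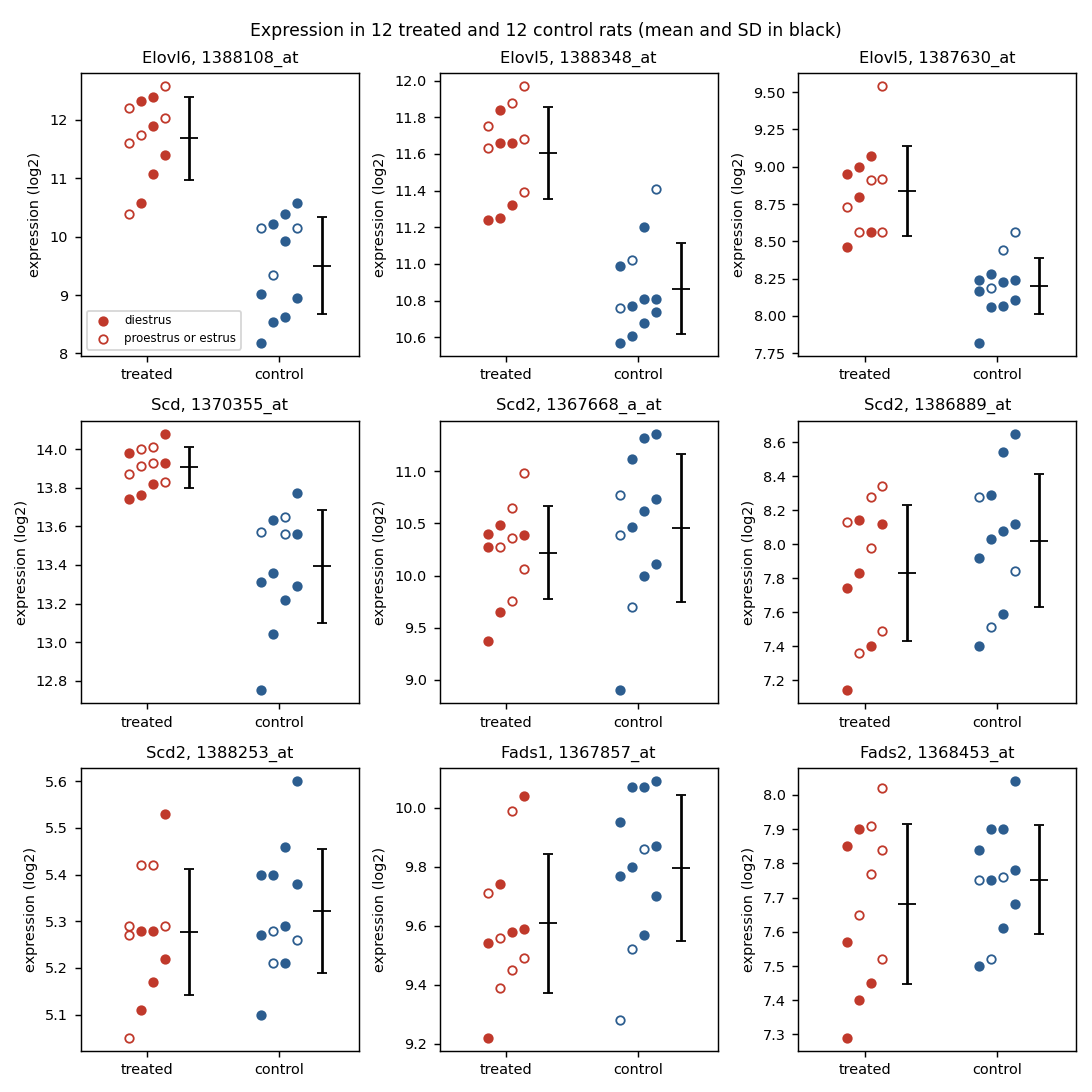
Expression in log2 (vertical axis) of each of the 9 probe sets in 12 treated rats (red, left) and 12 control rats (blue, right). Filled points are rats in diestrus, open points rats in proestrus or estrus, and black bars show mean and SD. In the panels of Elovl6, Elovl5 and Scd the treated rats sit above the control mean without exception, and in those of Scd2, Fads1 and Fads2 the groups overlap widely.

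Elovl5 lies on chromosome 8 of GRCr8, from base 87671164 to 87737618 on the forward strand. Its brighter probe set, 1388348_at, ran from 11.24 to 11.97 log2 in treated rats with a median of 11.66, and from 10.57 to 11.41 log2 in control rats with a median of 10.79. The groups overlapped in treated rats 3, 5, 8 and 9, which lay between 11.24 and 11.39 log2, under control rat 10 at 11.41 log2. The other 8 treated rats lay above every control rat. Elovl5 rose by 0.74 ± 0.10 log2 on this probe set, 1.67-fold, with a limma adjusted p of 6.51e-06. The second probe set, 1387630_at, ran from 8.46 to 9.54 log2 in treated and from 7.82 to 8.56 log2 in control rats, and rose by 0.64 ± 0.10 log2 (limma adjusted p = 3.75e-05). The probe sets differed in their response by 0.10 log2, which a permutation test did not tell from 0 (p = 0.31, 12 and 12 rats).

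Scd is the main stearoyl-CoA desaturase of adipose tissue and liver. It lies on the reverse strand of chromosome 1 of GRCr8, from base 253218968 to 253232101. Its probe set 1370355_at ran from 13.74 to 14.08 log2 in treated rats with a median of 13.92, and from 12.75 to 13.77 log2 in control rats with a median of 13.46. The overlap was narrow. Treated rats 9 and 5, at 13.74 and 13.76 log2, lay just under control rat 14 at 13.77 log2, and the other 10 treated rats lay above every control rat. Scd rose by 0.51 ± 0.09 log2, 1.43-fold (95% interval 1.26 to 1.61), with a limma adjusted p of 0.000102. Its values reached 14.08 log2, the top of the values on any array, and its SD was 0.104 log2 in treated rats against 0.292 log2 in control rats. Whether the arrays read less than the full difference at this brightness was not tested.

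Scd2, a second stearoyl-CoA desaturase known in rodents from brain and other tissues, lies 87.5 kb from Scd on the forward strand of chromosome 1, from base 253118377 to 253131436. On its brightest probe set, 1367668_a_at, treated rats ran from 9.37 to 10.98 log2 with a median of 10.32, and control rats from 8.90 to 11.36 log2 with a median of 10.55. The treated rats lay within the range of the control rats. The difference was -0.24 ± 0.23 log2 (95% interval -0.70 to 0.23), with a limma adjusted p of 0.555. The other probe sets differed by -0.19 ± 0.15 log2 (1386889_at, limma adjusted p = 0.455) and by -0.04 ± 0.05 log2 (1388253_at, limma adjusted p = 0.66). The last of these averaged 5.30 log2, near the low end of the values. The interval of 1367668_a_at admits a fall to 0.61-fold and a rise to 1.17-fold.

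The promoters of Scd and Scd2 are shown because the 2 desaturase genes are neighbours whose responses differed, and that of Elovl5 because both of its probe sets rose. They come from RefSeq (GRCr8) and run from 250 bases before to 50 bases after the annotated start, which for Scd, Fads1 and Fads2 lies 370, 87 and 157 bases inside the outermost start of the gene. Of the 6 genes 5 had such an entry, all but Elovl6. Capitals mark the box CCAAT that NF-Y binds, or its reverse complement ATTGG, and the E-box CACGTG. The windows are chr1:253231682-253231981 on the reverse strand for Scd, chr1:253118127-253118426 on the forward strand for Scd2, and chr8:87670914-87671213 on the forward strand for Elovl5.
Scd: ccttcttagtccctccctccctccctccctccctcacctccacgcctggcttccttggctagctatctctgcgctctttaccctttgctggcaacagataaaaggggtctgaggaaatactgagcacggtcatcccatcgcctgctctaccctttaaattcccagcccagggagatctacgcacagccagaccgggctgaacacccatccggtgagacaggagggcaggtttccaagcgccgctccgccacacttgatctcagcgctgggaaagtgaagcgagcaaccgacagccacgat
Scd2: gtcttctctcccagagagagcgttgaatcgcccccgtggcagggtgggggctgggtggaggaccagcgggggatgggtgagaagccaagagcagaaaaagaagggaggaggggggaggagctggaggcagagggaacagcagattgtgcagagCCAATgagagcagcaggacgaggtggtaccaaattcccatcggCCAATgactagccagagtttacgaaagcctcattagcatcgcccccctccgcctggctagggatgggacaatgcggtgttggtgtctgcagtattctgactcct
Elovl5: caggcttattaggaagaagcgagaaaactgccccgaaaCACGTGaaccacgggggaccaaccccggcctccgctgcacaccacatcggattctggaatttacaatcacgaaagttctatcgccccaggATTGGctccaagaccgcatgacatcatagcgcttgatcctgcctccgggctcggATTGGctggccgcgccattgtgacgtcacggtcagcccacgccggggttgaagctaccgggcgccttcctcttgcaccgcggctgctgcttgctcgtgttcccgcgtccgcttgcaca
Scd2 held CCAAT at 97 and 54 bases before its start, and Fads1 held CCAAT at 121 bases before its start. Elovl5 held the reverse complement at 122 and 68 bases before its start. Scd and Fads2 held neither form in this window. The box occurs in 37.5% of all 33469 promoters of this length on either strand. Elovl5 also held the E-box, 212 bases before its start, as 6.42% of all promoters do. None of the 5 windows held CACCCCAC, the core of the sterol regulatory element (2.7% of all promoters). Likewise none held AGGTCA, the core site of nuclear receptors (16.2%), or AGGTCANAGGTCA (0.0538%) and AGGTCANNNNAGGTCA (0.00598%), which repeat it. These matches describe the letters of the windows and say nothing of what binds there.

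Fads1 and Fads2 lie 80.4 kb apart on chromosome 1, from base 216252605 to 216267618 on the forward strand and from base 216132277 to 216172190 on the reverse strand. Fads1 (1367857_at) ran from 9.22 to 10.04 log2 in treated rats with a median of 9.57, and from 9.28 to 10.09 log2 in control rats with a median of 9.83. The groups overlapped over nearly their whole range, though 10 of 12 treated rats lay below the control mean. The difference was -0.19 ± 0.09 log2, with an unadjusted p of 0.055 and a limma adjusted p of 0.184. Fads2 (1368453_at) ran from 7.29 to 8.02 log2 in treated rats with a median of 7.71, and from 7.50 to 8.04 log2 in control rats with a median of 7.76. Its groups overlapped as well, with 6 of 12 treated rats below the control mean, and the difference was -0.07 ± 0.08 log2 (limma adjusted p = 0.613). Its SD between rats, 0.234 log2 in treated and 0.159 log2 in control rats, compares with an SD of repeat arrays of 0.161 log2. The control SD was no larger than that of repeat arrays and the treated SD was larger, but these spreads were not tested against each other.

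Markers of the cell types in the gland moved with treatment. The counts are of markers called in individual rats, where 8.46% of all probe sets were called higher and 9.59% lower. Of 7 adipocyte markers, 5 rose, among them Lep and Aqp7, and 1 fell, Cfd. Among rats in diestrus, 2 of these 7 were called higher and 1 lower. Adipoq, Cidec and Retn were listed but not measured. The mean of the 7 ran from 10.2 to 11.1 log2 in treated rats and from 9.90 to 10.9 log2 in control rats. Of 8 luminal markers 0 rose and 7 fell, and their mean ran from 9.79 to 10.3 log2 in treated and from 10.1 to 10.6 log2 in control rats, with 7 of 12 treated rats below every control rat. Of 5 basal markers 0 rose and 3 fell (mean 9.87 to 10.63 log2 in treated and 10.35 to 10.98 log2 in control rats). Nerve markers had 1 of 4 higher (S100b, which adipocytes also express) and 1 lower (Sox10), macrophage markers 2 of 5 higher and 1 lower, and endothelial markers 0 of 3 higher and 1 lower. The mean of 3 skin markers ran from 6.54 to 10.85 log2 in treated rats (SD 1.24) and from 6.53 to 8.20 log2 in control rats (SD 0.395), with 2 treated rats above every control rat. Their part in the results was not tested. No marker of skin, brown adipocytes (4) or lymphocytes (3) was called. Ucp1, which defines brown adipocytes, averaged 5.84 ± 0.09 log2 in treated and 5.86 ± 0.09 log2 in control rats (SD). Of the same list, Dio2 averaged 5.90 and 5.86 log2 and Cox8b 5.97 and 5.88 log2. Cidea was brighter, at 9.16 ± 0.49 log2 in treated and 9.04 ± 0.46 log2 in control rats (SD).

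With the mean of the adipocyte markers as a covariate, all 4 calls were kept but the differences were smaller. Elovl6 was higher by 1.34 ± 0.29 log2 (limma adjusted p = 0.00287), Elovl5 by 0.44 ± 0.09 log2 on 1388348_at (limma adjusted p = 0.00153) and 0.46 ± 0.12 log2 on 1387630_at (limma adjusted p = 0.0084), and Scd by 0.27 ± 0.08 log2 (limma adjusted p = 0.0299). With the mean of the luminal markers as a covariate none of the 9 probe sets was called. There Elovl6 was higher by 1.31 ± 0.39 log2 (limma adjusted p = 0.0613), Elovl5 by 0.35 ± 0.11 log2 and 0.47 ± 0.14 log2 (limma adjusted p = 0.064 and 0.0654), and Scd by 0.27 ± 0.11 log2 (limma adjusted p = 0.179). The luminal mean differed between the groups with little overlap, and with it in the fit 450 probe sets were called in all, against 2865 without it. The adipocyte mean also differed, by 0.44 log2, with 5 of its 7 markers called higher and 1 lower. Adipocyte content and the response of these markers to treatment cannot be told apart in that fit.

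Within each group, the 3 genes that rose were higher in rats with higher adipocyte markers, each gene on its brightest probe set. The second Elovl5 probe set, 1387630_at, was not set against the marker means. The relations of Elovl5 with them are therefore known for 1388348_at only. In treated rats, r with the adipocyte mean was 0.895 for Scd (rho = 0.865, permutation p = 0.00011, adjusted over 24 relations 0.00264), and 0.857 without the 2 rats farthest from the median of the marker mean. For Elovl5 it was 0.833 (rho = 0.697, permutation p = 0.00121, adjusted 0.00968) and 0.748 without those 2 rats. For Elovl6 it was 0.726 (rho = 0.741, permutation p = 0.00831, adjusted 0.0285), but 0.417 without them, so that it rested on those rats. In control rats the values were 0.736 for Scd, 0.674 for Elovl5 and 0.637 for Elovl6 (rho = 0.907, 0.834 and 0.818, permutation p = 0.00779, 0.0187 and 0.0194, adjusted 0.0285, 0.0465 and 0.0465), and 0.689, 0.610 and 0.689 without the 2 farthest rats. The desaturases Fads1, Fads2 and Scd2 had negative values, of which 1 passed by r. Fads1 had r = -0.692 in control rats (rho = -0.631, permutation p = 0.0127, adjusted 0.0382), but -0.435 without the 2 farthest rats, and -0.279 in treated rats (adjusted 0.433). Fads2 had -0.650 in treated and -0.623 in control rats (rho = -0.706 and -0.688, permutation p = 0.0241 and 0.03, adjusted 0.0526 and 0.0553 for r, and 0.0368 and 0.0381 for rho), and -0.471 and -0.438 without the 2 farthest rats. Scd2 had -0.203 in treated and -0.595 in control rats (permutation, adjusted p = 0.571 and 0.0699).

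With the luminal mean, 3 relations passed by r, all in treated rats. Scd had r = -0.853 (rho = -0.823, permutation p = 0.00077, adjusted 0.00924), and -0.807 without the 2 rats farthest from the median of that mean. Elovl5 had r = -0.794 (rho = -0.679, permutation p = 0.00355, adjusted 0.0213), and -0.708 without them. Fads2 had r = 0.741 (rho = 0.769, permutation p = 0.00795, adjusted 0.0285), and 0.738 without them. In control rats the values were -0.470 for Scd, -0.629 for Elovl5 and 0.186 for Fads2 (permutation, adjusted p = 0.174, 0.0553 and 0.587). Elovl6 had -0.603 in treated and -0.430 in control rats (permutation, adjusted p of r = 0.0692 and 0.196, and of rho 0.0474 and 0.292).

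**Figure D2:**
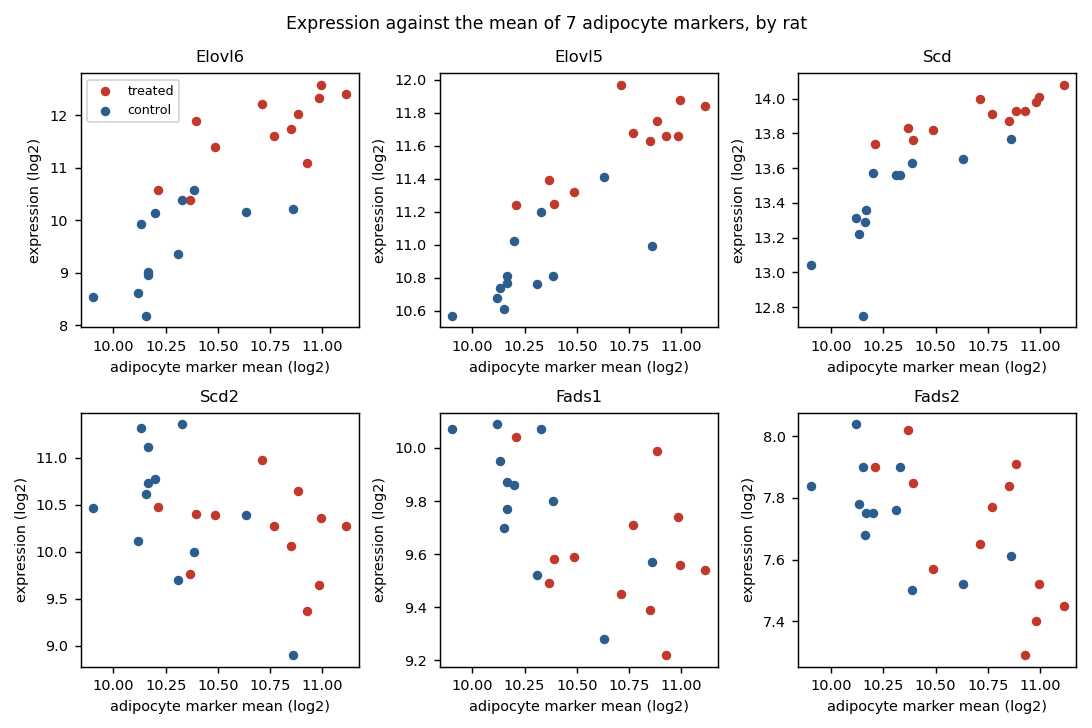
Expression in log2 (vertical axis) of each gene, on its brightest probe set, against the mean of 7 adipocyte markers in log2 (horizontal axis), with 1 point per treated rat (red) and control rat (blue). Elovl6, Elovl5 and Scd climb with the marker mean in both groups (r = 0.637 to 0.895), while Scd2, Fads1 and Fads2 have negative r in both groups (-0.203 to -0.692), of which Fads1 in control rats passed the test of r.

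The responses of the genes were then set against each other, each pair within the same rats, as the difference between treated and control rats of the per-rat log2 difference. Of 15 pairs, 12 differed at an adjusted p under 0.05 in two-sided permutation tests with 100000 resamples. The rise of Elovl6 exceeded that of Elovl5 by 1.44 ± 0.25 log2 and that of Scd by 1.67 ± 0.26 log2 (permutation, adjusted p = 0.00015 each, 12 of 12 treated rats above the control mean for both). The neighbouring desaturases Scd and Scd2 differed by 0.75 ± 0.28 log2 (permutation, adjusted p = 0.0194), with 12 of 12 treated rats above the control mean but 0 above the highest control rat. Scd exceeded Fads1 by 0.70 ± 0.15 log2 and Fads2 by 0.58 ± 0.15 log2 (permutation, adjusted p = 0.000506 and 0.00095). Elovl5 exceeded Scd by 0.23 ± 0.08 log2 (permutation, adjusted p = 0.00974), but on its second probe set by 0.12 log2 (permutation, adjusted p = 0.353), so that this order rests on the probe set. It rests also on the scale of Scd, whose values lie at the top of the range. The differences of Scd from other genes hold for the values as read, and compression at this brightness was not tested. The pairs among Scd2, Fads1 and Fads2 differed by -0.17 to -0.05 log2 and did not pass (permutation, adjusted p = 0.247 to 0.825).

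Pools of the same rats gave the same 4 probe sets. In pools of 2, Elovl6 had 11.21 to 12.45 log2 in treated pools (median 11.73) and 9.33 to 10.41 log2 in control pools (median 9.84), which did not overlap. It rose by 1.94 ± 0.22 log2, Elovl5 by 0.79 ± 0.10 and 0.57 ± 0.12 log2, and Scd by 0.44 ± 0.06 log2 (limma adjusted p = 0.00014, 0.000409, 0.00884 and 0.000641). All 4 separated the pools without overlap, and 0 of 9 probe sets fell. Over all probe sets 5.15% were called higher and 3.67% lower in pools of 2, and 2.89% were higher without overlap.

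In pools of 3, Elovl6 had 12.42, 12.14, 11.63 and 11.16 log2 in treated pools, against 10.06, 10.29, 9.99 and 9.58 log2 in control pools. Scd had 13.84, 13.87, 13.86 and 13.75 log2 in treated pools, against 13.31, 13.56, 13.45 and 13.32 log2 in control pools. Neither gene overlapped. Elovl6 rose by 1.86 ± 0.23 log2, Elovl5 by 0.61 ± 0.10 and 0.55 ± 0.10 log2, and Scd by 0.42 ± 0.07 log2 (limma adjusted p = 0.00116, 0.00375, 0.0083 and 0.00527). In this design 3.26% of all probe sets were called higher and 2.97% lower, and 4.71% were higher without overlap. Fads2 had 7.41, 7.66, 7.68 and 7.43 log2 in treated pools of 3, against 7.71, 7.91, 7.79 and 7.75 log2 in control pools. All of these treated pools were below every control pool, as in 7.25% of all probe sets, but the difference of -0.24 ± 0.08 log2 did not pass (limma adjusted p = 0.108).

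**Figure D3:**
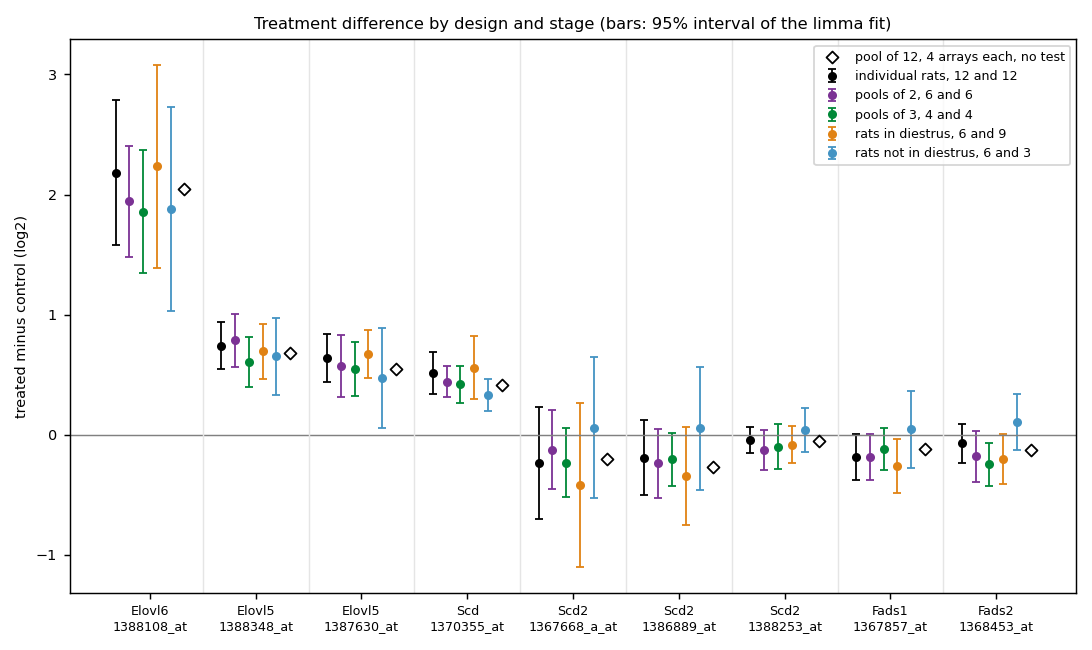
Treated minus control in log2 (vertical axis) for the 9 probe sets, by design and by stage, with the 95% interval of the limma fit as bars and open diamonds for the pools of 12, which have no test. The intervals of Elovl6, Elovl5 and Scd lie above 0 in every design, and Elovl6 stays between 1.86 and 2.23 log2.

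On the arrays of the pools of 12, Elovl6 had 11.91, 11.84, 12.03 and 11.95 log2 in the treated pool, against 9.82, 9.84, 10.00 and 9.89 log2 in the control pool. The difference was 2.05 log2, and 2.05 log2 without the repeat array that stands apart. Elovl5 differed by 0.68 and 0.55 log2 (0.62 and 0.62 log2 without it), Scd by 0.42 log2 (0.43 log2), and Fads1 and Fads2 by -0.12 and -0.13 log2 (-0.17 and -0.07 log2). Scd2 differed by -0.20, -0.27 and -0.05 log2 on its 3 probe sets (-0.28, -0.21 and 0.01 log2 without that array). These values have no test, since each pool is 1 mixture.

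If mixed targets add up, a pool reads as the linear mean of its rats. Elovl6 read above the log2 of that mean in 11 of 12 pools of 2, with a median excess of 0.126 log2 (-0.045 to 0.299), and in 8 of 8 pools of 3, with a median excess of 0.198 log2 (0.038 to 0.375). Of all probe sets, 1.92% were above it in at least 11 pools of 2 and 2.99% in all 8 pools of 3. Scd lay on both sides, above it in 6 of 12 pools of 2 and 3 of 8 pools of 3, with medians of -0.003 and -0.069 log2. These are descriptions, since pools share rats with each other across sizes.

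Oestrous stage was uneven between the groups, so treatment was also compared within stages. In rats in diestrus (6 treated, 9 control), Elovl6 had 10.57 to 12.40 log2 in treated rats with a median of 11.65, and 8.18 to 10.58 log2 in control rats with a median of 9.01. It rose by 2.23 ± 0.40 log2, Elovl5 by 0.70 ± 0.11 and 0.67 ± 0.09 log2, and Scd by 0.56 ± 0.12 log2 (limma adjusted p = 0.00346, 0.00173, 0.00118 and 0.011). All 4 were called, against 4.3% of all probe sets called higher and 4.43% lower, and both Elovl5 probe sets separated the groups without overlap, as 0.763% of all did. Fads1 differed by -0.26 ± 0.11 log2 (limma adjusted p = 0.164). It was called in 1 of 15 fits that left out a rat, the one without treated rat 9 (-0.34 log2, limma adjusted p = 0.0358). Fads2 and Scd2 (1367668_a_at) differed by -0.20 ± 0.10 and -0.42 ± 0.32 log2 (limma adjusted p = 0.254 and 0.52).

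In rats not in diestrus (6 treated, 3 control), Elovl6 had 10.39 to 12.58 log2 in treated rats with a median of 11.89, against 9.35, 10.14 and 10.15 log2 in control rats. Scd had 13.83 to 14.01 log2 in treated rats with a median of 13.92, against 13.56, 13.57 and 13.65 log2 in control rats. Both genes separated these groups without overlap, as 3.58% of all probe sets did, and rose by 1.88 ± 0.39 log2 (limma adjusted p = 0.0446) and 0.33 ± 0.06 log2 (limma adjusted p = 0.0353). These were 2 of the 9 probe sets, against 1.2% of all called higher and 0.284% lower. Both calls were lost in 8 of 9 fits that left out 1 rat, all but that without treated rat 3, with limma adjusted p-values of up to 0.203 for Elovl6 and 0.165 for Scd, while the differences stayed between 1.61 and 2.15 log2 and between 0.32 and 0.36 log2. Elovl5 differed by 0.65 ± 0.15 and 0.47 ± 0.19 log2 (limma adjusted p = 0.0573 and 0.294) and was called on 1388348_at without treated rat 3 (0.72 log2, limma adjusted p = 0.0156).

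The order of the Elovl6 levels over the 4 combinations was treated rats not in diestrus (11.76 ± 0.76 log2, SD, n = 6), treated rats in diestrus (11.61 ± 0.72, n = 6), control rats not in diestrus (9.88 ± 0.46, n = 3) and control rats in diestrus (9.38 ± 0.90, n = 9). The stages of each treatment group differed by less than the SD of the diestrus rats, and the gap between the treatments was wider than any of these SDs. Elovl5 (1388348_at) and Scd had the same order, with 11.72 ± 0.20, 11.49 ± 0.26, 11.06 ± 0.33 and 10.80 ± 0.20 log2 for Elovl5 and 13.92 ± 0.07, 13.88 ± 0.13, 13.59 ± 0.05 and 13.33 ± 0.31 log2 for Scd. Fads1 had its highest mean in control rats in diestrus (9.60 ± 0.22, 9.62 ± 0.27, 9.55 ± 0.29 and 9.88 ± 0.18 log2 in the same sequence), and the other 3 means lay within 1 SD of each other. With treatment in the fit, rats not in diestrus differed from rats in diestrus by 0.30 ± 0.31 log2 for Elovl6 and by 0.24 ± 0.09 log2 for Elovl5 (1388348_at), with unadjusted p of 0.35 and 0.0159 and a limma adjusted p of 0.999 for both. Stage gave 0 calls among the 9 and 0 among all probe sets by limma, that is 0.0%, with 581 probe sets (3.66%) at an unadjusted p under 0.05. The difference in treatment response between stages gave 0 calls too (0.0%, with 322 probe sets or 2.03% at an unadjusted p under 0.05). For Fads2 it was 0.31 ± 0.16 log2 (unadjusted p = 0.0652, limma adjusted p = 1.0).

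Within each group, Elovl6, Elovl5 and Scd, each on its brightest probe set, had positive correlations over rats, not all of which passed the test. Over 30 relations (15 pairs in each group), Pearson's r passed adjustment for 2. Elovl5 and Scd had r = 0.927 in treated rats (rho = 0.925, permutation p = 4e-05 and 8e-05, adjusted 0.0012 and 0.0024), and 0.863 without the 2 rats farthest from the median of Elovl5. Elovl6 and Scd had r = 0.824 in control rats (rho = 0.816, permutation p = 0.00068 and 0.00181, adjusted 0.0102 and 0.0181), and 0.672 without the 2 farthest. For Spearman's rho, Elovl6 and Scd in treated rats passed too (rho = 0.781, r = 0.717, permutation p = 0.00383 and 0.00857, adjusted 0.023 and 0.0643), as did Elovl5 with Elovl6 and with Scd in control rats (rho = 0.792 and 0.828, permutation, adjusted p = 0.023 and 0.0181; r = 0.712 and 0.699, adjusted p = 0.0643 and 0.0666). On the second Elovl5 probe set, 1387630_at, r with Scd was 0.445 in treated and 0.272 in control rats, and r with Elovl6 was 0.437 in treated and 0.176 in control rats, so that the relations of Elovl5 rest on the probe set. Of the relations of Fads2 with these 3 genes 0 passed (permutation, adjusted p of r = 0.12 to 0.302). Scd and Fads2 had r = -0.622 in treated and -0.577 in control rats (rho = -0.603 and -0.680, permutation p of r = 0.032 and 0.0491, adjusted 0.12 and 0.147). Elovl6 and Fads2 had -0.442 in treated rats, but 0.014 without the 2 rats farthest from the median of Elovl6. The genes share the arrays, and the marker means above vary with them.

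**Figure D4:**
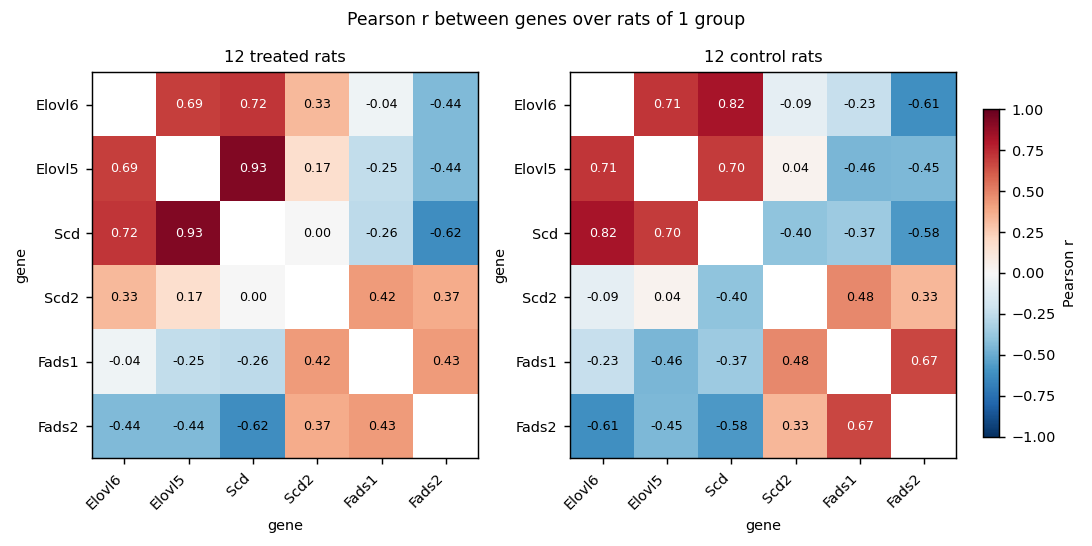
Pearson r between the 6 genes, each on its brightest probe set, over 12 treated rats (left) and 12 control rats (right), from -1 in blue to 1 in red. Elovl6, Elovl5 and Scd form a positive block in both groups (0.69 to 0.93), and Fads2 has a negative r with each of them, which did not pass the test.

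The genes most like each member were ranked by r over 24 rats of deviations from the group means, so that the treatment difference plays no part, among 10411 genes. For Elovl6 they were Agpat2, an acyltransferase of triglyceride synthesis (r = 0.944), Acaca, acetyl-CoA carboxylase (0.934), and Pnpla3, a lipid droplet protein (0.934). For Scd they were Mpc1, a mitochondrial pyruvate carrier (0.858), Thrsp, a lipogenic protein (0.845), and Me1, malic enzyme (0.844). Elovl5 was most like Sfxn1, a mitochondrial serine carrier (0.931), Etfb, an electron transfer flavoprotein (0.916), and Slc25a30 (0.870). Scd2 stood with Sqle and Idi1, enzymes of cholesterol synthesis (0.856 and 0.799), and Rpia of the pentose phosphate pathway (0.834). Fads1 was most like Gspt1, a translation termination factor (0.774), Csn2, the milk protein beta-casein (0.765), and Ppdpf (0.751). Fads2 was most like Mthfd2, a mitochondrial folate enzyme (0.909), Tubb5, a beta-tubulin (0.888), and Nubp1, an iron-sulfur assembly protein (0.881). Each list is the top of a ranking and carries no test. Variation between arrays was not separated from that between rats in these rankings. For Fads2 the SD in control rats was 0.159 log2, against 0.161 log2 for repeat arrays.

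The rest of the pathway was read from lists of genes, each on its brightest probe set, in the comparison of individual rats. The counts stand against 8.46% of all probe sets called higher, 9.59% called lower and a median difference of -0.00 log2. Of 11 other genes listed for elongation, 4 were measured, of which 3 rose and 0 fell, with a median of 0.16 log2. Of these 4, 1 was called higher in pools of 2, 1 in pools of 3 and 0 in rats in diestrus. Hsd17b12, which reduces the keto group in each round of elongation, rose by 0.62 ± 0.12 log2, Hacd3, a dehydratase of the cycle, by 0.18 ± 0.06 log2, and Elovl1, an elongase of long saturated chains, by 0.13 ± 0.04 log2 (limma adjusted p = 0.000801, 0.0293 and 0.0183). Of 10 other genes listed for desaturation, 7 were measured, of which 5 rose and 0 fell, with a median of 0.34 log2. Cyb5r3 (0.72 ± 0.10 log2), Cyb5b (0.34 ± 0.09 log2) and Cyb5a (0.32 ± 0.07 log2) carry electrons to the desaturases, Degs1 (0.42 ± 0.05 log2) desaturates ceramide precursors, and Fads3 rose by 0.81 ± 0.13 log2 (limma adjusted p = 9.6e-06, 0.0057, 0.0019, 4.95e-06 and 5.64e-05). A second probe set of Cyb5b was not called (0.09 ± 0.04 log2, limma adjusted p = 0.183). Fads3 lies in the same family as Fads1 and Fads2, which were not called.

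Of 9 genes that make or break down malonyl-CoA or supply palmitate, acetyl-CoA, citrate and NADPH, 7 rose and 1 fell, with a median of 0.99 log2. Me1, malic enzyme, rose by 1.92 ± 0.24 log2, Acss2, acetyl-CoA synthetase, by 1.46 ± 0.23 log2, and Acly, ATP citrate lyase, by 1.13 ± 0.15 log2 (limma adjusted p = 3.87e-06, 6.13e-05 and 1.08e-05). Acaca rose by 1.04 ± 0.17 log2 and Slc25a1, the citrate carrier, by 0.99 ± 0.15 log2 (limma adjusted p = 7.55e-05 and 3.41e-05). The member that fell was Acacb, the acetyl-CoA carboxylase known for restraining fatty acid oxidation, by 0.35 ± 0.09 log2 to 5.80 ± 0.17 log2 in treated rats, against 6.15 ± 0.29 log2 in control rats (limma adjusted p = 0.00764). Mlycd, which breaks malonyl-CoA down, was among those that rose, by 0.27 ± 0.06 log2 (limma adjusted p = 0.00142). Fasn, fatty acid synthase, rose by 0.65 ± 0.11 log2 on its brightest probe set and by 1.21 ± 0.18 log2 on its second (limma adjusted p = 8.45e-05 and 2.33e-05). Acacb, Mlycd and Fasn were chosen after their values were seen.

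Of 17 regulators, 2 rose and 1 fell, with a median of -0.01 log2. Mlxipl, the carbohydrate response factor ChREBP, rose by 0.89 ± 0.12 log2, and Pparg, the adipocyte nuclear receptor that pairs with RXR, by 0.76 ± 0.14 log2 (limma adjusted p = 1.42e-05 and 0.000349). Mbtps1, a protease that activates SREBPs, fell by 0.21 ± 0.04 log2 (limma adjusted p = 0.00119). Insig1, which holds SREBPs back, differed by 0.62 ± 0.24 log2 (limma adjusted p = 0.0786). Srebf1, the gene of SREBP-1, differed by -0.13 ± 0.13 and 0.04 ± 0.12 log2 on its probe sets, and Rxra, Rxrb and Rxrg by 0.10 ± 0.05, -0.07 ± 0.04 and 0.09 ± 0.05 log2, and none was called (limma adjusted p = 0.22 to 0.869).

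Of 8 genes that make, bind or use acyl-CoA, 2 rose and 1 fell, with a median of 0.00 log2. Acsl1, an acyl-CoA synthetase of adipocytes, and Dbi, an acyl-CoA binding protein, rose by 0.61 ± 0.16 and 0.61 ± 0.13 log2, and Acsl3, another synthetase, fell by 0.36 ± 0.10 log2 (limma adjusted p = 0.00721, 0.000992 and 0.0104). Of 8 listed genes of the peroxisome, where very long polyunsaturated chains are shortened, 5 were measured. Of these, 3 rose and 0 fell, with a median of 0.23 log2. Abcd2, a transporter of fatty acids into peroxisomes, rose by 1.05 ± 0.19 log2, Scp2 by 0.32 ± 0.06 log2 and Hsd17b4 by 0.23 ± 0.07 log2 (limma adjusted p = 0.00022, 0.000675 and 0.0145).

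**Figure D5:**
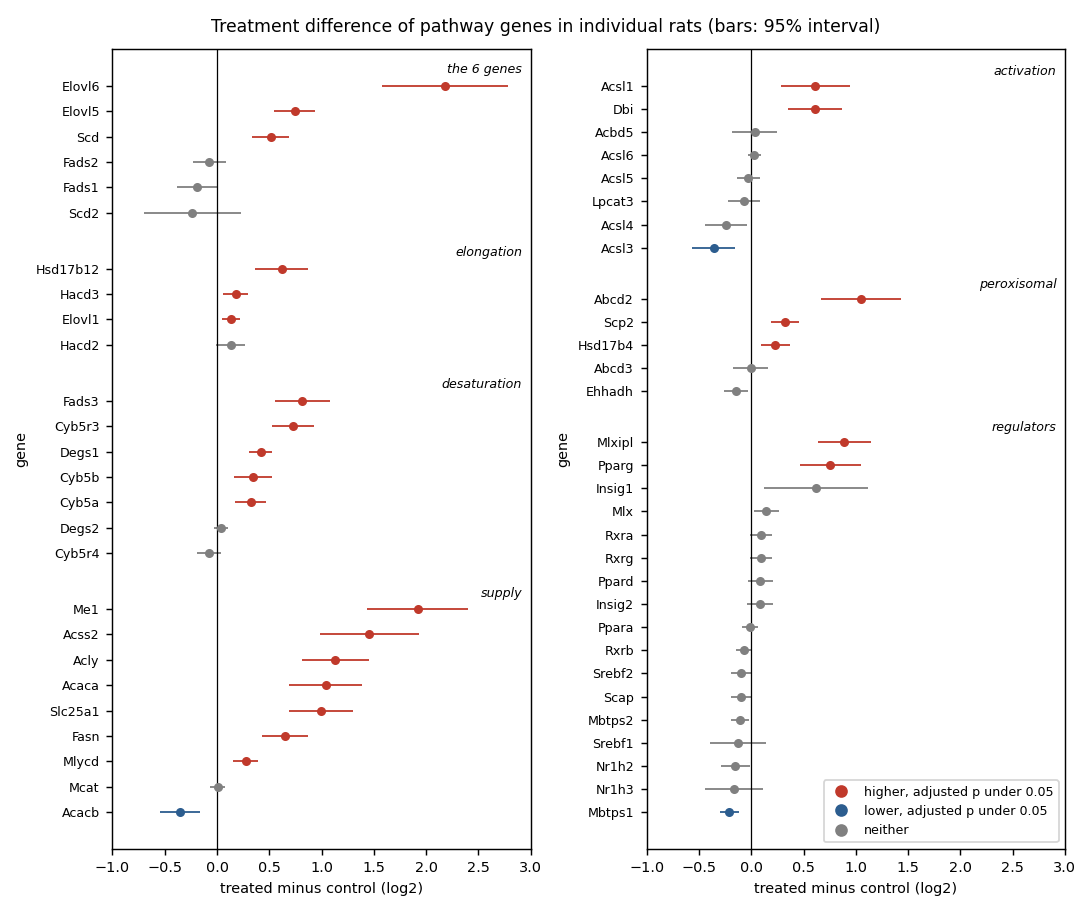
Treated minus control in log2 (horizontal axis) with its 95% interval for the 6 genes and the genes of 6 pathway lists in individual rats, 1 probe set per gene. Red marks genes called higher, blue genes called lower and grey neither. Genes of supply such as Me1 (1.92 log2) lie to the right together with Elovl6, and 14 of 17 regulators are grey.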

How the data were processed

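Total RNA of each gland was labelled and fragmented by the authors, and pools were mixed from fragmented targets, per the labels' protocols. The deposited table holds 1 value on the log2 scale for each probe set on each array, a unit inferred from the range of 4.12 to 14.08. The sources used here name no software, background correction or normalization, and nothing further was normalized. The labels name no batch, and detection calls were not used here, so it cannot be said which probe sets were above background.

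Of 15923 probe sets, 57 control probe sets were left out. Symbols came from the platform annotation, updated by Entrez gene ID through RefSeq (GRCr8). Treatment was tested with limma 3.58.1 (R 4.3.3), lmFit and eBayes, with 1 array for each rat, and apart from this in pools of 2, in pools of 3 and within stages, with Benjamini-Hochberg adjustment over 15866 probe sets and a threshold of 0.05. Stage was fitted with treatment, and the interaction with both. Individual rats are separate animals, and p-values in pools cover the spread between pools. Correlations and pair differences used permutation tests (Python 3.11.15, numpy 2.4.6, 100000 resamples, smallest p 1e-05). Figures were drawn with matplotlib 3.10.9. The fits were tested on simulated data.

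Named were all 6 genes, up to 5 genes of each pathway list by smallest p, regulators needed as background, and the 3 genes most like each member. The members, lists and tests were chosen with earlier results of these data known. The labels do not state that rat numbers shared by both groups (10 numbers) pair the rats, and the main test used no pairing. Same-numbered rats deviated together at r = -0.389 to 0.358, and 1 of 10 correlated best with its own number. These values cannot settle whether the numbers pair the rats. Alternatives covered normalization, a filter on dim probe sets, the prior, array weights, covariates, a replicate block, and leaving out each rat or pool. For 3 of the 4 arrays of a pool of 12 the source reads individual, where titles and descriptions name the pool, which was followed.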

Additional observations from a re-analysis of the deposited data

Results flagged for a closer look

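In groups of 4 to 10 samples, the highest or lowest value of a probe set lay apart from the rest in 5 of 81 groups examined, and chance gives about 1 in 20. On the Elovl5 probe set 1387630_at, treated rat 14, not in diestrus, was highest at 9.54 log2, with the next of those 6 rats at 8.92 log2, and control rat 5, in diestrus, was lowest at 7.82 log2, with the next of those 9 rats at 8.06 log2. In the control pool of 12, the last repeat array, which stands apart over all probe sets, was the highest of 4 arrays for 3 probe sets. It read 8.53 log2 for Elovl5 (1387630_at, next 8.27 log2), 13.53 log2 for Scd (next 13.48 log2) and 8.30 log2 for Scd2 (1386889_at, next 8.09 log2).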

How the results depend on the processing

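In individual rats 4 of the 9 probe sets were called under 11 of 12 other settings and in all 24 fits that left out 1 rat, with Elovl6 between 2.06 and 2.30 log2 in those 24. The exception was the luminal marker mean as a covariate, with 0 calls and 1.315 log2 for Elovl6, 0.348 and 0.468 log2 for Elovl5 and 0.268 log2 for Scd. There the uncalled differences turned positive, at 0.161, 0.202 and 0.017 log2 for the Scd2 probe sets, 0.076 log2 for Fads1 and 0.165 log2 for Fads2. With the adipocyte mean as a covariate Scd2 turned to 0.159, 0.105 and 0.053 log2 and Fads2 to 0.135 log2. With rat number as a replicate block Elovl6 kept 2.18 log2, the block changed no call, and Scd2 on 1388253_at turned to 0.002 log2. Among rats not in diestrus, where leaving out rats was tried after the data were seen, the count of calls was 0 to 3 with a rat left out and 1 with arrays centred on their medians. Leaving out 1 rat there moved the uncalled Scd2 from -0.233 to 0.302 log2 (1367668_a_at) and -0.130 to 0.255 log2 (1386889_at), and Fads1 from -0.092 to 0.198 log2. The stage difference of Scd2 ranged from -0.043 to 0.187 and from -0.041 to 0.127 log2, and the interaction of Elovl5 from -0.196 to 0.129 log2. Of 2 correlations that passed, 1 was left without the 2 farthest rats and 1 with the second Elovl5 probe set. In pools of 3, 3 probe sets were called without the pools that hold rats 2 and 3. In the pair comparisons, tried after the data were seen, 11 to 12 of 15 pairs passed. The cause of these changes was not tested.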
